A study of Mus musculus with 8 samples.

Results

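Frizzled proteins are the cell surface receptors to which secreted Wnt proteins bind, and Lrp5 and Lrp6 are the co-receptors that join a Wnt-bound Frizzled to signal through β-catenin. The receptors described here are 10 genes, namely Fzd1, Fzd2, Fzd3, Fzd5, Fzd6, Fzd7, Fzd8, Fzd10, Lrp5 and Lrp6. They were chosen by symbol, as genes read by at least 1 probe set assigned to that symbol alone, with earlier results of these data known. Fzd4 and Fzd9 are not among them. The 10 stand among 17097 genes with such a probe set, and all 10 passed the filter on dim signals that left 14403 genes to test. Where a gene had several probe sets, the one with the highest mean over all arrays led.

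RNA was measured on 8 Affymetrix arrays, 1 for each sorted cell population of 4 mice bearing basal cell carcinomas, which are skin tumours of active Hedgehog signalling. All mice carried K14-CreER/Ptch1cKO, in which the keratin 14 promoter drives an inducible Cre in basal keratinocytes and their relatives, and Ptch1, the receptor that restrains Smoothened, can be deleted by it. Cells from the epidermis of the back skin were sorted by an Lgr5-GFP reporter and by an antibody to Lrig1, so all sorted cells were Lrig1-positive. The 4 groups held 2 mice each: untreated Lgr5-positive (Lgr5+Lrig1+) cells, untreated Lgr5-negative cells (spelled Lrg5-Lrig1+ in the labels), and the same 2 populations from mice given vismodegib, a drug that blocks Smoothened. Both populations of a mouse came from the same animal. Doses, treatment lengths and ages are not given in the sources at hand, and no step to remove leukocytes is described there.

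Wnt binding to Frizzled and Lrp5 or Lrp6 stabilises β-catenin, whereas Frizzled with other partners, such as Ror and the planar polarity proteins, acts on cell shape and orientation. By sequence, Fzd1, Fzd2 and Fzd7 form a closely related subfamily, as do Fzd5 with Fzd8 and Fzd3 with Fzd6. In skin, Wnt signalling through β-catenin starts hair follicle formation and growth and keeps follicle stem cells, and Fzd3 and Fzd6 orient hairs in the skin plane. Smoothened, the target of vismodegib, is itself a distant relative of the Frizzled receptors.

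The sorted gene and the drug's pathway were checked first. Lgr5 lay between 10.98 and 11.00 log2 signal in untreated Lgr5-positive cells and between 8.40 and 8.52 in untreated Lgr5-negative cells, and between 9.44 and 10.03 and between 4.83 and 5.46 after vismodegib, so Lgr5-positive arrays were the higher in every mouse. Lrig1, stained for in all sorted cells, lay between 10.64 and 11.60 in all arrays. It was higher in untreated Lgr5-positive cells by 0.79 ± 0.17 (limma, adjusted p = 0.0192), but not past the threshold without the untreated Lgr5-negative array of mouse 1 (0.0597) or 2 (0.143) or the untreated Lgr5-positive array of mouse 1 (0.0758). With vismodegib in Lgr5-positive cells, the Hedgehog targets Ptch1 and Gli1 differed by −3.13 ± 0.22 and −3.52 ± 0.17 log2 units (SE, limma, adjusted p = 0.000333 and 0.000101). In Lgr5-negative cells they differed by −2.84 ± 0.22 and −2.44 ± 0.17 (limma, adjusted p = 0.00167 and 0.00166). Ptch1 is also the gene that the Cre of these mice can delete. Of 12 basal and follicle keratinocyte markers, 11 were on the array, with a mean log2 signal between 10.73 and 11.31 in all arrays and none at or below 4.85, the level taken as dim. With vismodegib in Lgr5-positive cells, 1 of these was higher and 3 (Lhx2, Cdh3 and Sox9) lower at a limma adjusted p under 0.05. In untreated tumours 4 were higher and 1 lower in Lgr5-positive cells. Of all genes tested, 6.37% were higher and 4.51% lower with vismodegib there, and 6.21% and 10.9% between the untreated populations. Among the calls with vismodegib only that of Lhx2 held in every repeat fit, at −3.08 ± 0.18. The part of these markers was not tested. Of 20 Langerhans cell, dendritic cell and macrophage markers, the mean log2 signal lay between 6.08 and 6.49 in untreated Lgr5-positive cells, between 7.42 and 7.71 in untreated Lgr5-negative cells, between 8.42 and 8.44 in vismodegib Lgr5-negative cells and between 8.68 and 9.03 in vismodegib Lgr5-positive cells.

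In Lgr5-positive cells, Fzd2 was 3.27-fold lower and Fzd6 1.56-fold higher with vismodegib, and the other 8 receptors did not pass the test. Here a receptor was called when its limma p-value was under 0.05 after Benjamini-Hochberg adjustment across all genes tested. Of the 10 receptors, 1 was called higher and 1 lower, against 6.37% and 4.51% of all genes tested (10.9% in either direction). The median log2 difference of the receptors was −0.39, against −0.01 for all genes. The groups of 2 arrays did not overlap for 3 receptors higher and 6 lower, where 27.9% of all genes did so upwards and 26.9% downwards (54.8% in all).

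In untreated tumours, Fzd2 and Fzd8 were higher in Lgr5-positive than in Lgr5-negative cells, by 3.35-fold and 1.55-fold. Of the 10 receptors, 2 were called higher and 0 lower, against 6.21% and 10.9% of all genes tested (17.1% in either direction). Without adjustment, 7 receptors had a limma p under 0.05. Their median log2 difference was 0.42, against 0.02 for all genes, and groups did not overlap for 8 receptors higher and 2 lower, against 33.4% and 31.2% of all genes (64.6% in all). The comparison shares the untreated Lgr5-positive arrays with the vismodegib comparison in those cells, so values of these arrays enter both with opposite signs.

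**Figure D1:**
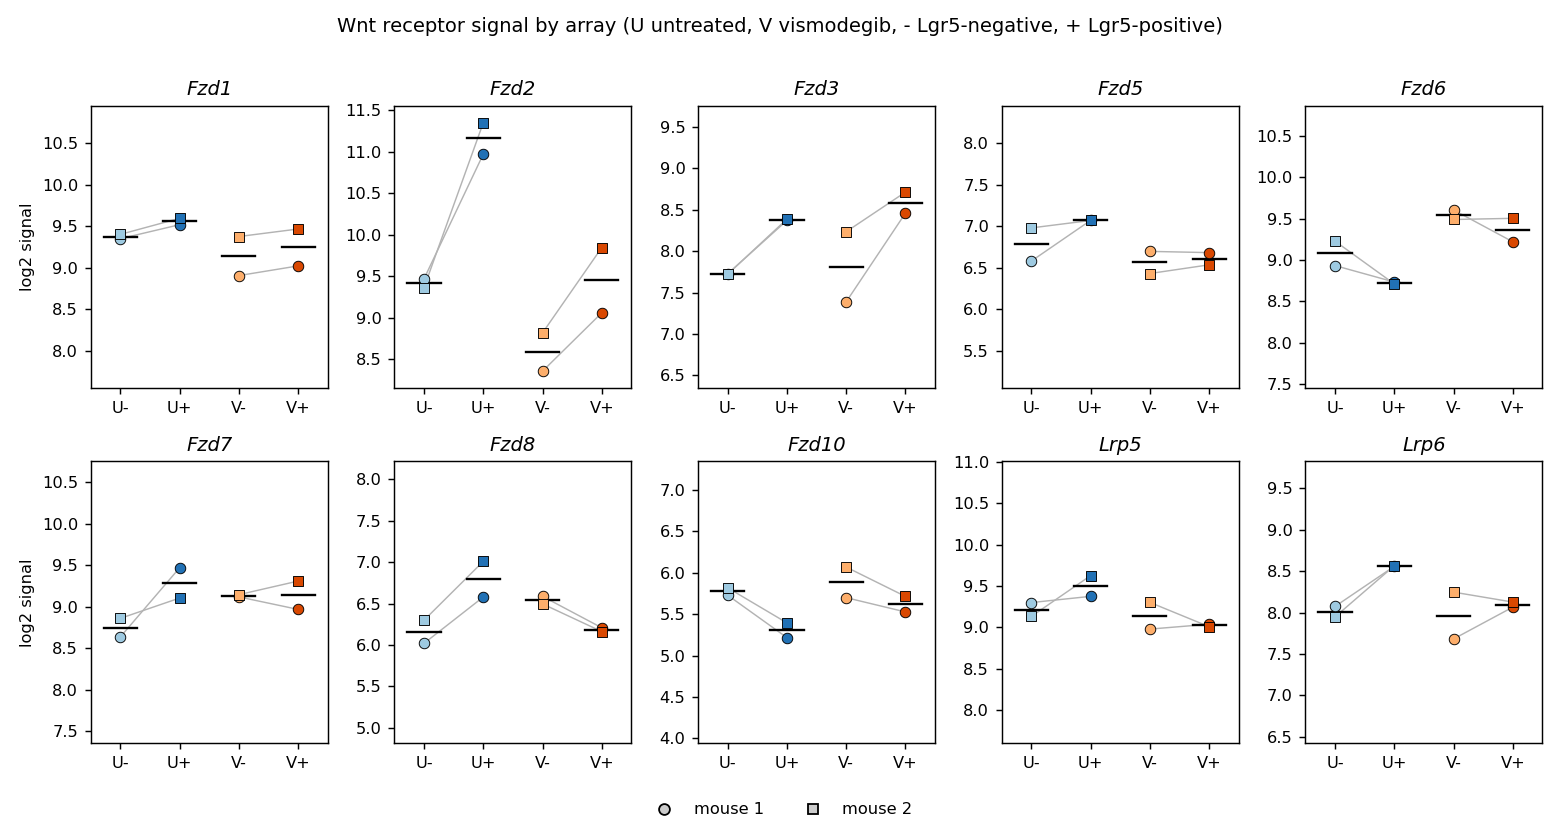
The log2 signal of the leading probe set of each receptor is plotted for the 8 arrays, with U for untreated, V for vismodegib, − for Lgr5-negative and + for Lgr5-positive on the horizontal axis and panels of equal height in log2 units. Circles are mouse 1, squares are mouse 2, grey lines join the populations of a mouse and black bars are group means. Fzd2 stands highest in untreated Lgr5-positive cells, at 10.97 and 11.35.

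Fzd2, a receptor for Wnt5a and other Wnts, moved most among the 10. Its log2 signal was 9.47 and 9.36 in the untreated Lgr5-negative arrays of mice 1 and 2, and 10.97 and 11.35 in the untreated Lgr5-positive arrays. After vismodegib it was 8.36 and 8.82 in Lgr5-negative cells and 9.06 and 9.85 in Lgr5-positive cells. The untreated Lgr5-positive arrays were the highest of the 8, with no overlap with any other group, while the vismodegib Lgr5-positive arrays lay on either side of the untreated Lgr5-negative ones. The vismodegib difference in Lgr5-positive cells was −1.71 ± 0.28 (log2, SE, limma, adjusted p = 0.00861, n = 2 mice per group). It stayed past the threshold in all 18 alternative fits, with values between −2.10 and −1.32. In bulk RNA, a change in the share of cells that carry Fzd2 and a change in RNA per cell cannot be told apart.

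The untreated population difference of Fzd2 was 1.75 ± 0.28 (log2, limma, adjusted p = 0.00694). Without the untreated Lgr5-negative array of mouse 2 it was 1.69 with an adjusted p of 0.062, and over all alternatives the adjusted p ran from 0.0018 to 0.062. Over both treatments Fzd2 was 1.31 ± 0.20 higher in Lgr5-positive cells (2.47-fold, adjusted p = 0.00637), which held in all 17 alternatives. All 4 mice showed it, by 1.50 and 1.99 in the untreated mice and 0.70 and 1.03 in the vismodegib mice. In the vismodegib mice alone the difference was 0.87 ± 0.28 and did not pass (limma, adjusted p = 0.277), in a comparison that called 0.472% of all genes.

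Fzd2 in Lgr5-negative cells differed by −0.83 ± 0.28 with vismodegib, which did not pass (limma, adjusted p = 0.16). By the mean of its 3 probe sets the value was −1.09, which passed (adjusted p = 0.0443), and 1 other probe set on its own gave −1.37 (0.0323). The difference between the vismodegib effects of the populations was −0.88 ± 0.39, with a 95% interval from −1.79 to 0.03 (limma, adjusted p = 0.297), so the drug effect on Fzd2 was not shown to differ between them. The other probe sets of Fzd2 gave −1.80 and −1.67 for vismodegib in Lgr5-positive cells and 1.90 and 1.76 for the untreated populations, each past the threshold. The probe set at −1.80 and 1.90 may cross-hybridise with similar transcripts.

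Those Langerhans cell, dendritic cell and macrophage markers that were called went opposite to Fzd2 with vismodegib in Lgr5-positive cells and between the untreated populations. With vismodegib in Lgr5-positive cells, 17 of the 20 rose and 0 fell, against 6.37% and 4.51% of all genes. In untreated tumours 8 of the 20 were lower and 0 higher in Lgr5-positive cells, against 10.9% and 6.21%, and the others were not called. Between the populations after vismodegib, 2 of the 20 (Lyz2 and Cd68) were higher in Lgr5-positive cells and 0 lower, against 0.34% and 0.132%. Fzd2 was also higher there, though not past the threshold. Neither marker call held in every alternative. The part of these markers in the Fzd2 differences was not tested. Of 10 dermal fibroblast markers, 5 were set aside as dim, Pdgfra and Lum among them, and between 4 and 5 were at or below the dim level in every array. Of the 5 tested, 2 (Sparc and Col1a1) were higher and 0 lower in untreated Lgr5-positive cells, against 6.21% and 10.9% of all genes. The differences were 0.97 ± 0.24 and 0.88 ± 0.17 (limma, adjusted p = 0.0318 and 0.0147). With vismodegib in those cells 0 rose and 1 (Fbln1) fell, by 1.40 ± 0.33 (limma, adjusted p = 0.0343), against 6.37% and 4.51%. None of these calls held in every alternative. Sparc did not fall there, at 8.50 and 8.16 untreated and 8.27 and 8.87 with vismodegib. In Lgr5-negative cells only Sparc was called, lower with vismodegib (−1.61 ± 0.24, limma, adjusted p = 0.0173, 0.154 by another probe set). After vismodegib only Sparc was called, higher in Lgr5-positive cells (2.82 ± 0.24, 0.00638, 0.0521 by that probe set). Over both treatments Sparc and Col1a1 were higher there (1.90 ± 0.17 and 0.65 ± 0.12, 0.00121 and 0.0152) and 0 lower, against 5.44% and 8.37%. The part of the fibroblast markers was not tested either.

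Fzd1 and Fzd7, the close relatives of Fzd2, did not pass in any comparison. Fzd1 stayed between 8.91 and 9.60 over the 8 arrays, and was higher in Lgr5-positive cells in all 4 mice by only 0.09 to 0.19. Its vismodegib difference in Lgr5-positive cells was −0.31 ± 0.20, with a 95% interval from −0.77 to 0.15. Fzd7, which supports intestinal stem cells, was 8.63 and 8.86 in untreated Lgr5-negative cells and 9.47 and 9.10 in untreated Lgr5-positive cells. Those groups did not overlap, and the difference was 0.54 ± 0.17 (limma, adjusted p = 0.0734), which passed in 2 alternatives, with its probe sets averaged (0.61, adjusted p = 0.0428) and after cyclic loess (0.64, adjusted p = 0.0416). After vismodegib its populations stood at 9.12 and 9.14 against 8.97 and 9.31, a difference of 0.01 with a 95% interval from −0.40 to 0.41.

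Fzd8 had opposite differences between populations in untreated and treated mice. Its log2 signal was 6.02 and 6.30 in untreated Lgr5-negative cells and 6.58 and 7.01 in untreated Lgr5-positive cells. After vismodegib it was 6.59 and 6.50 in Lgr5-negative cells and 6.21 and 6.16 in Lgr5-positive cells. All these values came from its sole probe set, and the lower ones lay about the median of the whole table, 6.16. Groups did not overlap in either treatment, with Lgr5-positive cells higher in the untreated mice and lower in the vismodegib mice.

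The untreated difference of Fzd8 was 0.64 ± 0.17 (1.55-fold, limma, adjusted p = 0.0414), over alternatives from 0.0194 to 0.208. The call ended after cyclic loess (adjusted p = 0.0693), with only the 4 arrays compared (0.0815), and without the untreated Lgr5-negative array of mouse 1 (0.208) or mouse 2 (0.101), the untreated Lgr5-positive array of mouse 2 (0.145) or either vismodegib Lgr5-positive array (0.0718 each). With vismodegib, Lgr5-positive cells differed by −0.61 ± 0.17 (limma, adjusted p = 0.0614), and without the untreated Lgr5-positive array of mouse 1 this passed at 0.0264. The vismodegib mice differed between populations by −0.36 ± 0.17 and the drug effect in Lgr5-negative cells was 0.38 ± 0.17, neither past the threshold. The test of the difference between the drug effects gave −0.99 ± 0.24 (limma, adjusted p = 0.0946), in a comparison that called 1.4% of all genes, so it did not pass.

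Fzd5, the close relative of Fzd8, did not pass in any comparison. Its log2 signal was 6.58 and 6.98 in untreated Lgr5-negative cells, 7.07 and 7.07 in untreated Lgr5-positive cells, and 6.70 and 6.43 and then 6.68 and 6.54 after vismodegib. The vismodegib difference in Lgr5-positive cells was −0.46 ± 0.17 (limma, adjusted p = 0.127), and the groups did not overlap.

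**Figure D2:**
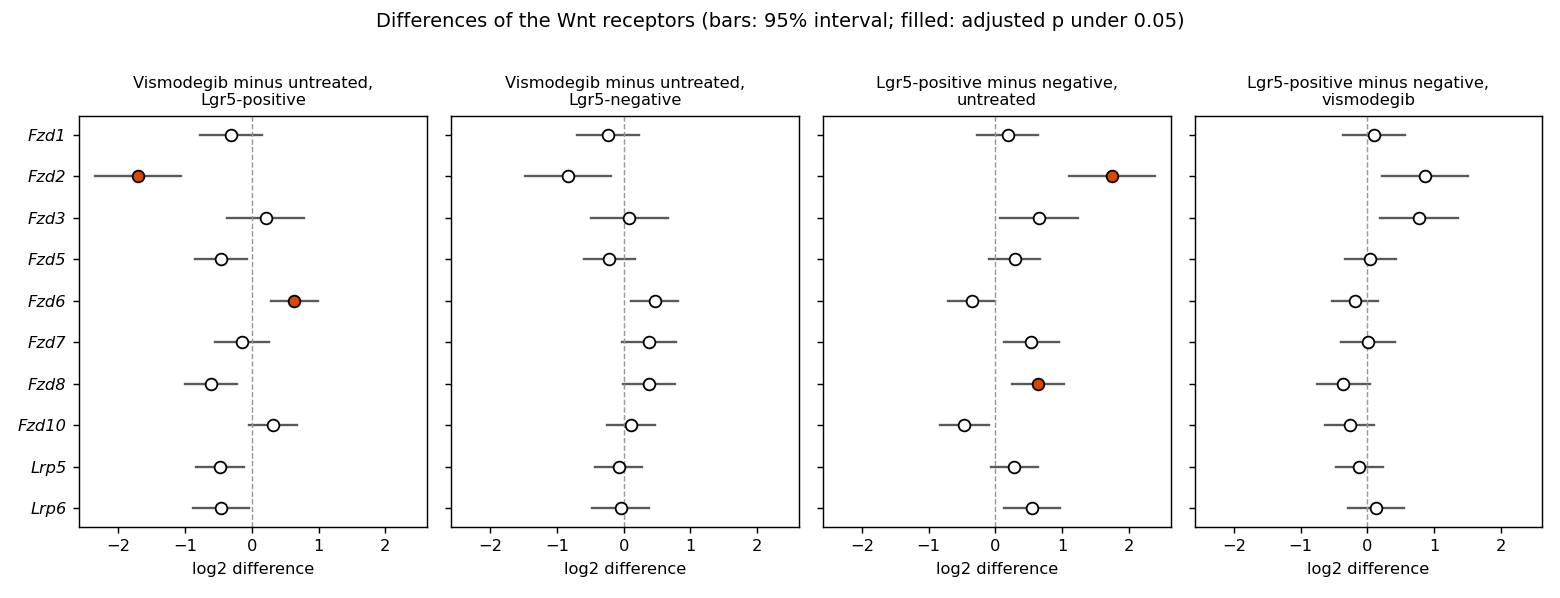
The log2 difference of each receptor is plotted with its 95% interval from limma for 4 comparisons, filled where the adjusted p was under 0.05. Fzd2 lies at −1.71 with vismodegib and at 1.75 between the untreated populations, farther from 0 than any other receptor in both.

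Fzd6, which orients hairs in the skin plane, was called higher with vismodegib in Lgr5-positive cells. Its log2 signal was 8.73 and 8.71 in the untreated Lgr5-positive arrays and 9.22 and 9.50 in the vismodegib ones, so the groups did not overlap. The difference was 0.64 ± 0.15 (limma, adjusted p = 0.0352). In Lgr5-negative cells it was 8.93 and 9.23 untreated and 9.60 and 9.49 after vismodegib, also without overlap, with a difference of 0.47 ± 0.15 that did not pass (limma, adjusted p = 0.15). The difference between the effects was 0.17 ± 0.21, with a 95% interval from −0.32 to 0.67. Between the untreated populations Fzd6 did not overlap either, with Lgr5-positive cells the lower (−0.36 ± 0.15, limma, adjusted p = 0.148, not past the threshold), and over both treatments the difference was −0.27 ± 0.11 (0.134).

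The Fzd6 call in Lgr5-positive cells ended under array weights (adjusted p = 0.0539), with only the arrays compared (0.0637), and without either untreated Lgr5-negative array (0.0501 each), the untreated Lgr5-positive array of mouse 1 (0.0864) or mouse 2 (0.118), or the vismodegib Lgr5-positive array of mouse 1 (0.0713) or mouse 2 (0.192, with a value of 0.50). Its other probe set gave 0.57 with an adjusted p of 0.0801. The myeloid markers rose in the same comparison, 17 of 20, and their part in the Fzd6 difference was not tested.

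Fzd3, which also orients hairs and acts in axon guidance, was higher in Lgr5-positive cells over both treatments. Its log2 signal was 7.73 and 7.72 in untreated Lgr5-negative cells and 8.37 and 8.39 in untreated Lgr5-positive cells. After vismodegib it was 7.39 and 8.23 in Lgr5-negative cells and 8.46 and 8.71 in Lgr5-positive cells. Lgr5-positive arrays were above the Lgr5-negative arrays in all 4 mice, by 0.65, 0.67, 1.07 and 0.48.

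The difference of Fzd3 over both treatments was 0.71 ± 0.18 (1.64-fold, limma, adjusted p = 0.037), in a comparison where 2 of 10 receptors were called higher and 0 lower, against 5.44% and 8.37% of all genes (13.8% in either direction). The call ended without any of the 6 arrays other than the vismodegib Lgr5-negative ones, with adjusted p between 0.0716 and 0.125. In each other probe set of Fzd3, 5 in all, the difference lay between 0.23 and 0.40 and did not pass. In untreated mice alone the difference was 0.66 ± 0.25 (limma, adjusted p = 0.115), and with each of the 4 mice as a block, which pairs the populations of a mouse, it passed at 0.0427. It also passed with only the arrays compared (0.0212) and without either vismodegib Lgr5-negative array (0.0147 each). In vismodegib mice it was 0.77 ± 0.25 (limma, adjusted p = 0.281), and without the Lgr5-negative array of mouse 2 it was 1.20 (0.0359). Vismodegib left no called difference of Fzd3 in either population by the leading probe set, and 1 other probe set was higher in Lgr5-positive cells by 0.53 ± 0.13 (adjusted p = 0.0374).

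**Figure D3:**
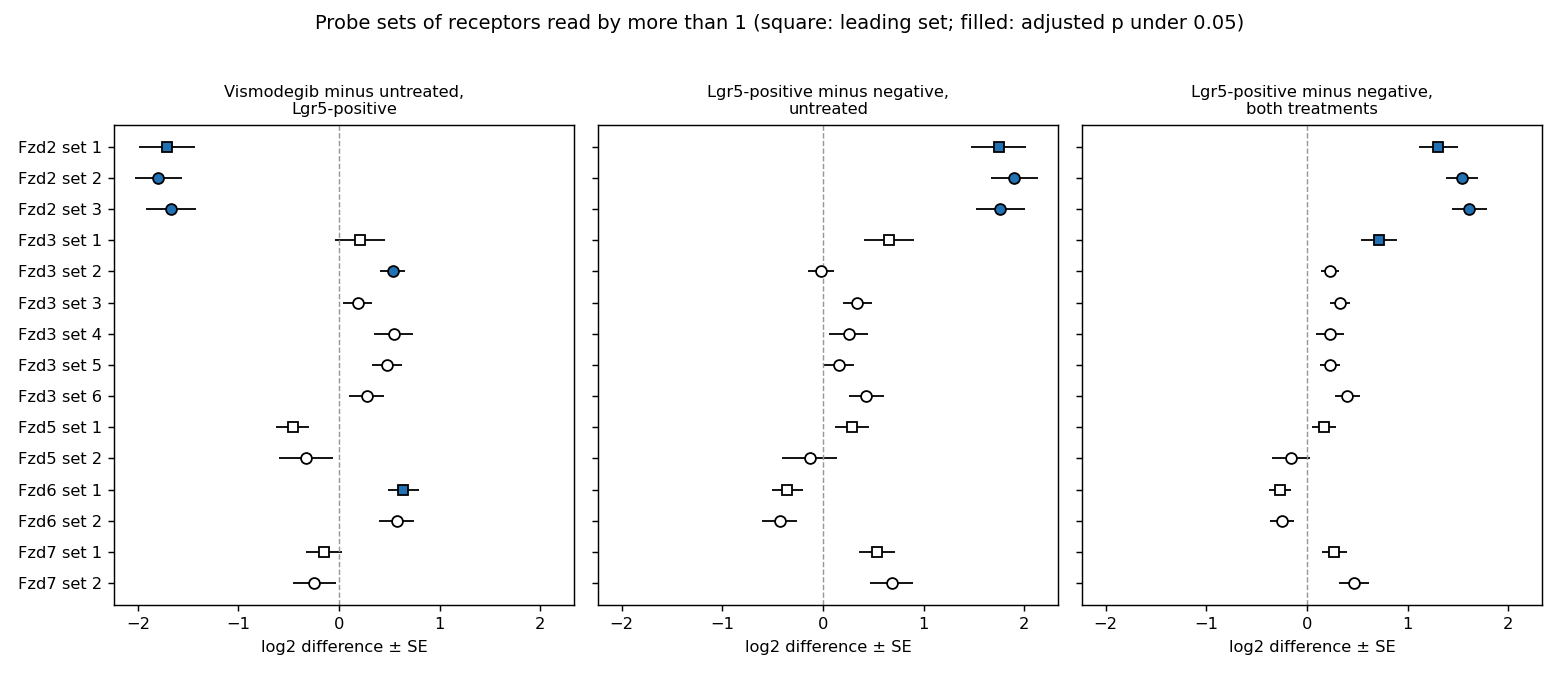
The log2 difference of each probe set of the 5 receptors that have several, 15 probe sets in all, is plotted with its SE for 3 comparisons. The 3 probe sets of Fzd2 stand together at −1.80 to −1.67 with vismodegib in Lgr5-positive cells, whereas those of Fzd3 spread from −0.02 to 0.66 between the untreated populations.

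Fzd10 ran the other way, being lower in Lgr5-positive cells in all 4 mice, by −0.51, −0.42, −0.17 and −0.35. Its log2 signal was 5.73 and 5.82 in untreated Lgr5-negative cells and 5.22 and 5.39 in untreated Lgr5-positive cells. After vismodegib it was 5.70 and 6.07 in Lgr5-negative cells and 5.53 and 5.71 in Lgr5-positive cells. These values, from its sole probe set, were low, all between the dim level of 4.85 and the median of the whole table, 6.16. The untreated groups did not overlap, at −0.47 ± 0.16 (limma, adjusted p = 0.0808), which passed after cyclic loess (0.0424) and without either vismodegib Lgr5-negative array (0.046 each). Over both treatments the difference was −0.37 ± 0.11 (limma, adjusted p = 0.0687), and with each mouse as a block it passed at 0.0441. It also passed after cyclic loess (0.0388) and without the vismodegib Lgr5-negative array of mouse 1 (0.0416).

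Of the 10 receptors, 3 (Fzd1, Fzd2 and Fzd3) were higher in Lgr5-positive cells in 4 of 4 mice, and 1 (Fzd10) was lower in 4 of 4. Among all genes tested the shares were 15.3% higher and 15% lower. Vismodegib mouse 1 was lower than vismodegib mouse 2 in both populations for 6 of the 10 receptors (Fzd1, Fzd2, Fzd3, Fzd7, Fzd10 and Lrp6), against 29.3% of all genes. It was higher in both for 2, against 23.7%. Untreated mouse 1 was lower than untreated mouse 2 in both populations for 3 receptors and higher for 0, against 27.3% and 24.8%.

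**Figure D4:**
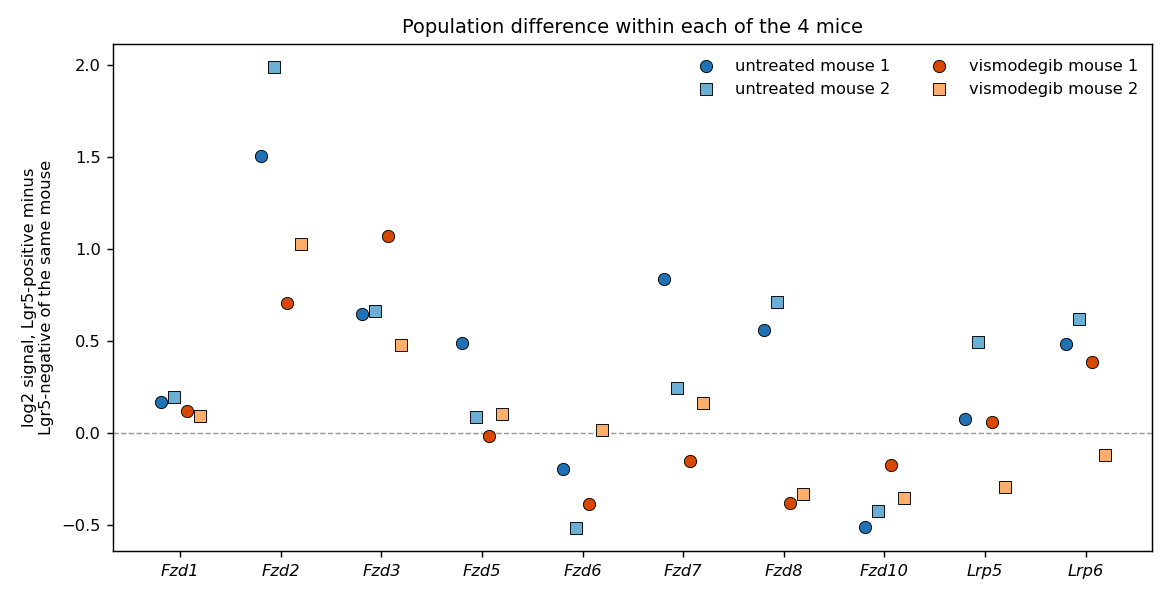
The log2 signal of Lgr5-positive minus Lgr5-negative cells is plotted for each receptor in each of the 4 mice. Fzd2 is above 0 in every mouse, from 0.70 to 1.99, and Fzd8 is above 0 in both untreated mice and below 0 in both vismodegib mice.

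The co-receptors Lrp5 and Lrp6, which pass the Wnt signal to Axin and β-catenin, did not pass in any comparison. Lrp6 was 8.07 and 7.95 in untreated Lgr5-negative cells, 8.56 and 8.56 in untreated Lgr5-positive cells, 7.68 and 8.25 in vismodegib Lgr5-negative cells and 8.07 and 8.13 in vismodegib Lgr5-positive cells. The untreated Lgr5-positive arrays were the highest of the 8. The untreated population difference was 0.55 ± 0.18 (limma, adjusted p = 0.0771), and it passed with only the arrays compared (0.0374) and without either vismodegib Lgr5-negative array (0.0175 each). The vismodegib difference in Lgr5-positive cells was −0.47 ± 0.18 (limma, adjusted p = 0.16), and it passed without either vismodegib Lgr5-negative array (0.0393 each). Over both treatments Lrp6 was 0.34 ± 0.13 higher in Lgr5-positive cells (limma, adjusted p = 0.121), which passed without the vismodegib Lgr5-negative array of mouse 2 (0.48, 0.0143).

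Lrp5 was 9.30 and 9.13 in untreated Lgr5-negative cells, 9.38 and 9.63 in untreated Lgr5-positive cells, 8.98 and 9.30 in vismodegib Lgr5-negative cells and 9.04 and 9.01 in vismodegib Lgr5-positive cells. Its arrays did not overlap with vismodegib in Lgr5-positive cells, at −0.48 ± 0.15 (limma, adjusted p = 0.0949). In Lgr5-negative cells the difference was −0.08 ± 0.15, with a 95% interval from −0.43 to 0.28.

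In Lgr5-negative cells no receptor passed with vismodegib by limma, against 3.32% of all genes (1.26% higher and 2.06% lower). There 2 (Fzd2 and Fzd6) had an unadjusted p under 0.05. The next, Fzd8, had a limma p of 0.0553 and ranked 2873 of 14403 genes by p. Groups did not overlap for 3 receptors higher and 1 lower, against 26.5% and 24.9% of all genes (51.4% in all). Between the populations after vismodegib no receptor passed either by limma, against 0.34% of all genes higher and 0.132% lower. Here 2 (Fzd2 and Fzd3) had an unadjusted p under 0.05, and they ranked 775 and 802 by p among all genes tested. Groups did not overlap there for 2 receptors higher and 1 lower, against 21.2% and 22.5% of all genes (43.7% in all). With each mouse as a block, that comparison called 105 genes in place of 68. No receptor passed the limma test of the difference between the drug effects, against 0.993% of all genes higher and 0.41% lower. For that test 1 receptor (Fzd8) had an unadjusted p under 0.05, and it ranked 558 by p among all genes tested. Smo, the Frizzled relative that vismodegib binds, lay between 11.21 and 11.77 in all arrays and did not pass with vismodegib in Lgr5-positive cells (−0.33 ± 0.14, limma, adjusted p = 0.205).

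The other genes of the pathway were counted by list, in the same comparisons in which the myeloid markers moved, whose part was not tested. The shares of all genes tested to set beside each count are 6.37% higher and 4.51% lower with vismodegib in Lgr5-positive cells, and 6.21% higher and 10.9% lower in untreated Lgr5-positive cells. Up to 4 called genes of a list with the largest differences were followed through the alternatives and other probe sets in each comparison, and many of these calls did not hold throughout. Among the Wnt ligands that bind these receptors, 2 of 18 tested rose and 2 fell with vismodegib in Lgr5-positive cells, and 1 was higher and 4 lower in untreated Lgr5-positive cells. Of the 4 calls followed in each comparison, 1 held throughout, that of Wnt10a. Wnt10a, a ligand of skin appendage growth, rose by 1.72 ± 0.22 with vismodegib (limma, adjusted p = 0.0031) and was lower by −1.39 ± 0.22 in untreated Lgr5-positive cells (0.00659). Wnt5a, a ligand of Fzd2 and Ror2, fell with vismodegib in both populations. In Lgr5-negative cells the difference was −1.86 ± 0.22 (limma, adjusted p = 0.00691), which did not pass without the untreated Lgr5-negative array of mouse 2 (−1.84, 0.0752). In Lgr5-positive cells it was −1.03 ± 0.22 (0.0235), which did not pass with only the arrays compared (0.0706), without either untreated Lgr5-negative array (0.0516 each), without the untreated Lgr5-positive array of mouse 1 (0.0781) or 2 (0.0742) or without the vismodegib Lgr5-positive array of mouse 1 (−0.68, 0.0754). In untreated tumours Wnt5a was lower in Lgr5-positive cells, where Fzd2 was higher (−1.19 ± 0.22, 0.0109), which did not pass without the untreated Lgr5-negative array of mouse 1 (0.0589) or 2 (0.0847).

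Among receptor partners, which bind beside Frizzled or control its turnover, 0 of 16 rose and 3 fell with vismodegib in Lgr5-positive cells, and 5 were higher and 0 lower in untreated Lgr5-positive cells. Of the 3 that fell 0 held throughout, and of the 4 followed among the higher ones 1 did, Lgr6. Lgr6, an R-spondin receptor, was higher there by 1.49 ± 0.19 (limma, adjusted p = 0.00295), and over both treatments by 1.15 ± 0.13 (0.00299). Ror2 was higher by 0.83 ± 0.22 in untreated Lgr5-positive cells (limma, adjusted p = 0.0394), a call that ended after cyclic loess (0.056) and without the untreated Lgr5-negative array of mouse 1 (0.0963) or 2 (0.225) or the untreated Lgr5-positive array of mouse 2 (0.154).

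Of the receptor antagonists, 2 of 12 rose and 2 fell with vismodegib in Lgr5-positive cells, and 3 were higher and 1 lower in untreated Lgr5-positive cells. Of these 4 calls each, 3 held throughout with vismodegib and 0 between the untreated populations. Wif1, which binds Wnts in the extracellular space, differed with vismodegib by −2.26 ± 0.20 in Lgr5-positive cells (limma, adjusted p = 0.000682) and by −3.53 ± 0.20 in Lgr5-negative cells (0.00055). Dkk3, a Dickkopf relative, fell by 1.67 ± 0.22 in Lgr5-positive cells (0.00405). Apcdd1, which binds Wnt and Lrp5, rose by 2.14 ± 0.31 (0.00586). Over both treatments 3 of 12 were higher and 1 lower in Lgr5-positive cells, against 5.44% and 8.37% of all genes. Of these 4 calls 2 held throughout, Wif1 (1.64 ± 0.14, limma, adjusted p = 0.00115) and Dkk3 (1.05 ± 0.16, 0.00676). After vismodegib only Wif1 was called, higher in Lgr5-positive cells by 2.28 ± 0.20 (0.00638). That call did not pass with only the arrays compared (0.0802).

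Of 24 genes of the β-catenin transduction machinery, 0 rose and 1 fell with vismodegib in Lgr5-positive cells, and 0 of 24 differed by limma in either direction between the untreated populations, where 17.1% of all genes did. The gene that fell was Bcl9, a co-activator of β-catenin (−0.74 ± 0.15, limma, adjusted p = 0.0234), and this ended without the untreated Lgr5-positive array of mouse 2 (0.104) or the vismodegib Lgr5-positive array of mouse 1 (0.151) or 2 (0.0682) and by its other probe set (0.507). Of 16 planar polarity genes, 0 rose and 1 fell with vismodegib in Lgr5-positive cells, and 1 was higher and 1 lower in untreated Lgr5-positive cells. Dact1, a Dishevelled-binding protein, fell by 2.10 ± 0.15 with vismodegib (limma, adjusted p = 0.000333) and was higher by 1.50 ± 0.15 in untreated Lgr5-positive cells (0.0014), and both calls held throughout. Scrib, a polarity scaffold, was lower there by −0.64 ± 0.13 (0.0174), which did not pass without the untreated Lgr5-negative array of mouse 1 (0.11) or 2 (0.0718) or the untreated Lgr5-positive array of mouse 1 (0.0666).

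Of 16 Wnt target genes, 2 rose and 2 fell with vismodegib in Lgr5-positive cells, and 4 were higher and 1 lower in untreated Lgr5-positive cells. Of the 4 calls followed in each comparison, 3 held throughout with vismodegib and 1, Lef1, between the untreated populations. Lef1, the transcription factor that carries β-catenin to DNA, fell by 1.76 ± 0.19 with vismodegib (limma, adjusted p = 0.00146) and was higher by 1.53 ± 0.19 in untreated Lgr5-positive cells (0.00267). Tnfrsf19, also called Troy, rose by 2.63 ± 0.15 with vismodegib in Lgr5-positive cells (0.000189). Apcdd1 is on this list and on the antagonist list.

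The genes whose log2 signal over the 8 arrays was most like that of a called receptor are given as a description, since all 8 arrays share the sort and the groups. For Fzd2 they were Adamts7 (Pearson r = 0.99), Fgfrl1 (0.986) and Irx1 (0.985). For Fzd6 they were Hdlbp (0.986), Samhd1 (0.977) and Ranbp9 (0.966), for Fzd8 Pnpt1 (0.966), Cdiptos (0.964) and Dydc2 (0.959), and for Fzd3 Insr (0.986), Otud5 (0.985) and Rnf32 (0.984). Among the receptors, Fzd2 was most like Lrp6 (r = 0.874 over the 8 arrays) and ran most against Fzd6 (r = −0.833).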

How the data were processed

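The deposited values are log2 signals per probe set, made by the authors with RMA (version not stated) per the submitters' processing notes, and were used as deposited. Values of a probe set depend on its own binding, so levels of different genes were not compared. The table has 45141 probe sets. A sole gene symbol was assigned to 28898, more than 1 to 551 and none to 15588, beside 104 controls, by GEO's platform annotation with symbols updated where an identifier matched (16936 of 17097 genes). Of the receptors, 5 had 1 probe set and 5 had several (20 in all), and no probe set of several symbols held one. The annotation names no genome build, so no positions are given. A gene was tested if 2 or more arrays exceeded 4.85 (percentile 25 of the whole table). This kept 14403 genes and dropped 2694.

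The two-sided test was limma's moderated one (version 3.58.1, R 4.3.3, functions lmFit and eBayes), fitted once to the 8 arrays with a mean for each of 4 groups. Residual degrees of freedom were 4 and prior ones 3.53. Benjamini-Hochberg adjustment covered all genes tested. Replicates are separate mice, 2 per group, and their number limits the precision. The script was tested on simulated data. Groups, tests, lists and the choice of receptors were made with earlier results of these data known. The text names all 10 receptors and the check genes Lgr5, Lrig1, Ptch1, Gli1 and Smo. From each pathway list the rule took up to 4 called genes with the largest difference per comparison, and the text names those whose call held in every repeat fit and probe set, and Wnt5a, Ror2, Bcl9 and Scrib. The fits were repeated with other handling of probe sets, without the filter or with it at the median, after cyclic loess, with an intensity trend or array weights, on the compared arrays alone, with a fixed block (each of the 4 mice for population differences, the mouse number for drug effects) or the mouse as a random block, and without each array in turn.

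Both populations of a mouse come from the same animal, so the mouse block pairs them. Their deviations from group means correlated across genes at 0.142 (untreated) and 0.211 (vismodegib). Across treatments the same number marks different mice (0.01 and −0.107), so the number block of the drug effects pairs nothing. Probe sets of type _s_at, among them 1 of Fzd2 and 1 of Fzd3, may cross-hybridise.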

Additional observations from a re-analysis of the deposited data

Results flagged for a closer look

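Fzd8 differed by −0.99 log2 units between the vismodegib effects in Lgr5-positive and Lgr5-negative cells. Both vismodegib Lgr5-positive arrays were below both untreated ones, and both vismodegib Lgr5-negative arrays were above both untreated ones, but the test of the difference did not pass (limma, adjusted p = 0.0946, between 0.0503 and 0.26 over the alternatives).

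For Dact1 the difference between the vismodegib effects was −1.72 (limma, adjusted p = 0.0171). It did not pass without the untreated Lgr5-negative array of mouse 1 (0.0606) or mouse 2 (0.0967) or the vismodegib Lgr5-positive array of mouse 1 (0.0543). For Tnfrsf19 it was 1.42 (limma, adjusted p = 0.0298), and it did not pass when any of 7 arrays was left out or by its other probe sets (1.26 and 0.20, adjusted p = 0.0778 and 0.79). For Lgr5, the gene of the sort, it was 2.06 (limma, adjusted p = 0.0413), and it did not pass with the mean of all probe sets (1.44, 0.053), with no filter (0.0569), with the mouse as a block (0.0538), by its other probe set (0.81, 0.23), or without any array but the vismodegib Lgr5-negative one of mouse 1 (0.0671 to 0.17).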

How the results depend on the processing

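Of the receptor calls, Fzd2 with vismodegib in Lgr5-positive cells and Fzd2 over both treatments held in every alternative, and the calls of Fzd6, Fzd8 and Fzd3 and that of Fzd2 between untreated populations did not. No called receptor difference changed sign, while some that did not pass did. With vismodegib in Lgr5-positive cells 1 receptor was called under array weights and 1 with only the arrays compared, in place of 2. By the mean of all probe sets 1 was called in Lgr5-negative cells, in place of 0. Only the arrays compared called 234 genes in Lgr5-negative cells with vismodegib (478 in the full fit). Between populations after vismodegib 68 genes were called, against 42 with every probe set, 36 with no filter, 11 with only the arrays compared and 105 with each mouse as a block. That block also brought Fzd3 in untreated mice (0.0427) and Fzd10 over both treatments (0.0441) past the threshold. Fzd10 was not tested under the median filter. The causes were not tested.

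When 1 array was left out, the genes called ranged from 543 to 1823 for vismodegib in Lgr5-positive cells, 65 to 523 for vismodegib in Lgr5-negative cells, 582 to 2852 for the untreated populations, 18 to 107 for the vismodegib populations, 2 to 251 for the difference between drug effects and 742 to 2709 for populations over both treatments. Receptors called ranged from 1 to 3, 0 to 0, 0 to 5, 0 to 1, 0 to 0 and 1 to 3 in the same order. A lone array was assumed to vary like the other groups. With 2 mice a group, small changes may be missed, and a receptor that did not pass is not shown to be equal.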
